A study of Arabidopsis thaliana with 39 samples.

Results

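Neighbouring genes of *Arabidopsis thaliana* often lie head-on on opposite strands, and in many of these pairs the 3′ ends run into each other, so that both transcripts end in the same stretch of DNA. The pairs described here are all nuclear protein-coding gene pairs on opposite strands whose annotated 3′ ends share at least 1 bp and in which neither gene lies inside the other. The annotation held 2364 of them, 3 were left out because the study displayed them as examples, and the remaining 2361 pairs hold 4719 genes, which is 17.2% of 27444 nuclear protein-coding genes. Only 3 genes belong to 2 pairs.

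The study sequenced small RNAs of 13 groups of 3 libraries, 39 in all, to learn whether mutants of mRNA maturation and decay make more small RNAs from protein-coding genes than wild-type Col-0. The first set compares *lsm1a lsm1b* (mRNA decapping), *ncb-4* (the Cajal body protein coilin), *upf1-5* and *upf3-1* (nonsense-mediated decay) with Col-0 (1). The second compares *ahg2-1* and *ccr4a* (deadenylation), *pab2 pab4* (poly(A) binding), *fy-2* and *rsr1-2* (cleavage and polyadenylation) with Col-0 (2), and plants of both sets were grown on MS medium for 14 days. The third compares *cstf64-2* (cleavage and polyadenylation) with Col-0 (3), both 21 day-old plants on soil. All mutants are in the Col-0 background and RNA came from whole seedlings or plants, so that fewer cells of a type and less RNA per cell cannot be told apart. The *fy-2* and *upf1-5* lines are hypomorphic, *rsr1-2* is a knock-out, and the sterile *cstf64-2* homozygotes were picked by their appearance. Libraries are described as triplicates, and for *cstf64-2* nothing states that they came from separate cultures, so that its p-values measure the spread between these libraries.

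Transcripts of overlapping genes can pair with each other. The resulting double-stranded RNA is a substrate of Dicer-like enzymes, and small RNAs from such pairs are known as natural antisense siRNAs, first described for *SRO5* and *P5CDH* under salt stress. CstF64 is the subunit of the cleavage stimulation factor that binds GU-rich elements behind the poly(A) site, and RNA polymerase that is not released there reads through into the gene behind, which in a head-on pair is antisense to it.

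The shared stretch had a median length of 83 bp, with quartiles at 36 and 214 bp and a range from 1 to 3784 bp. It held at least 1 base that is exonic in both genes in 2356 of 2361 pairs, though not every stretch was exonic throughout. In 1518 pairs (64.3%) no coding sequence of either gene reached into it, so that it lay outside coding sequence. Coding sequence of 1 gene reached in for 694 pairs and of both for 149. The stretches of 6 pairs are printed to show how short the contact between genes with changed small RNAs can be. They have the largest summed fold change in *cstf64-2* among the 302 pairs that share 15 to 30 bp, of which 27 had both genes tested. Capitals mark the bases that belong to both genes and lower case the bases beside them, all read 5′ to 3′ on the + strand of TAIR10.1, in which the first-named gene is on the + strand.
*AT4G05400* and *YAO* (AT4G05410): tggtttAATAATTTGCCTTTTCATatactt
*AT3G06610* and *AT3G06620*: ttcAAAGCAAAACAAAATAGAAATACatt
*AT3G27520* and *GC6* (AT3G27530): ctaTAAATCATGAATATTTTGAAGGCAaac
*AT4G12640* and *AT4G12650*: taGTAATATTCATTTTTCTCATTTGCTGag
*ATRX* (AT1G08600) and *AT1G08610*: atgacaCCTGTTTCGAGATTCAAAtataca
*AT5G28740* and *AT5G28750*: tttGCTTCTTCTACTCGAAAGAGCCTtct
These runs lie at chr4:2742926-2742955, chr3:2062128-2062156, chr3:10193474-10193503, chr4:7467843-7467872, chr1:2733590-2733619 and chr5:10783971-10783999. None of the 6 shared stretches holds coding sequence of either gene. The stretch of *AT4G05400* and the nucleolar WD40 protein gene *YAO* is 18 bp long and 77.8% A and T. Those of *AT3G06610* with *AT3G06620* (23 bp) and *AT3G27520* with the golgin gene *GC6* (24 bp) are 78.3% and 75% A and T. The least AT-rich is that of *AT5G28740* and *AT5G28750*, with 52.2%.

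The counts are numbers of reads on the exons of each gene, with no use of strand detectable in them. A read inside the shared stretch falls on both genes and was counted for neither, since 939 to 942 of 963 genes that are wholly covered by exons of an opposite gene had no read in any library of a set. Every value below is therefore read from the part of a gene that its partner does not cover, a median of 1448 of 1668 exonic bases, and 22 of the 4719 genes have no such part. Library totals on genes ran from 6437260 to 7968503 in the first set, from 7767365 to 9151932 in the second and from 2015212 to 2323991 in the third. These totals also depend on the counting, which appears to have differed for the third set. Most of these genes had few reads, with a median of 1.33 per library in Col-0 (3) and 3.33 in *cstf64-2*. Small RNAs from 3 of the mutated genes could be looked up because they are themselves in overlapping pairs. *CSTF64* had 5, 6 and 7 reads in *cstf64-2* and 4, 3 and 2 in Col-0 (3), *AHG2* 1, 0 and 2 in *ahg2-1* and 1, 1 and 2 in Col-0 (2), and *LSM1A* 0, 0 and 0 in *lsm1a lsm1b* and 4, 0 and 1 in Col-0 (1). These counts were too low to be tested and check no label.

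In *cstf64-2* small RNAs from the overlapping genes rose. Of 4719 genes 742 had enough reads to be tested, and 423 of them were up and 5 down (edgeR's quasi-likelihood test, with an adjusted p under 0.05 and a log2 fold change above 1 or below -1, the calls used throughout). Up calls took 13.6% of all genes tested and 27.5% of the protein-coding genes tested, while the 423 are 57.0% of the overlapping genes tested and 8.96% of all 4719. Down calls took 3.3% and 2.74% of these. The median log2 fold change of the overlapping genes tested was 1.5, beside -0.00 for all genes tested and 0.28 for protein-coding ones. A gene can pass the filter on low counts through the mutant libraries alone, which bears on any share of tested genes. The share of all genes of a class does not depend on that filter in the same way, since genes with too few reads count as not called.

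The 423 genes that rose had a median log2 fold change of 2.37 (quartiles 1.80 and 3.09), and a median of 22.7 reads per library in *cstf64-2* against 3.67 in Col-0 (3). Both strands took part, with 206 genes on the + strand and 217 on the - strand. The rise was not limited to genes that could be tested. Among the 3977 untested genes the summed reads were 14116, 12349 and 14004 in *cstf64-2* and 5406, 5174 and 7417 in Col-0 (3). The number of the 4719 genes with at least 1 read was 3670, 3582 and 3687 in *cstf64-2* against 2856, 2883 and 3140. Such sums and numbers were not taken for genes outside the pairs, so they do not show whether this is particular to overlapping genes.

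**Figure D1:**
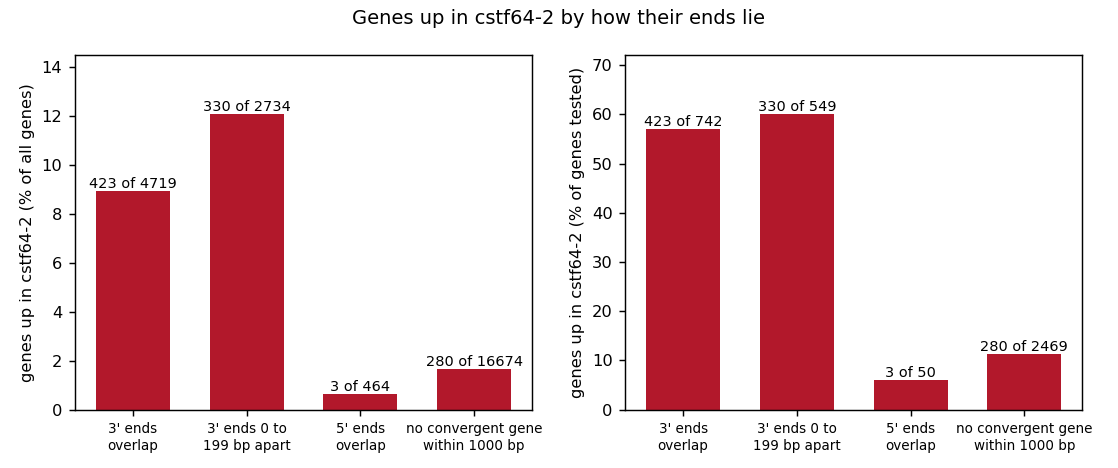
Genes up in *cstf64-2* as a percentage of all genes of each class (one panel) and of the genes tested (the other panel), for genes whose 3′ ends overlap, genes whose 3′ ends lie under 200 bp apart without sharing a base, genes whose 5′ ends overlap and genes with no convergent gene within 1000 bp. Overlapping 3′ ends (8.96% of all) and close 3′ ends (12.1%) stand above overlapping 5′ ends (0.647%) and genes without a convergent neighbour (1.68%).

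Genes with close 3′ ends rose with or without an overlap. Across a gap of 0 to under 200 bp 330 of 2734 genes were up (12.1%, 549 tested), with a median log2 fold change of 1.70 among those tested. Of 464 genes that overlap at their 5′ ends 3 were up (50 tested), and their median was -0.01. Of 16674 genes with no convergent gene within 1000 bp 280 were up (2469 tested), with a median of 0.06. Overlapping and close 3′ ends were ahead of genes without a convergent neighbour at each level of mean reads over both groups. With a mean under 10 reads over both groups 2.37% of all overlapping genes were up, 2.22% across a short gap and 0.349% without a convergent gene. With a mean of 10 to under 50 reads these were 57.2%, 64.9% and 12.2%, and with 50 reads or more 19%, 25.6% and 5.75%, all as shares of every gene at that level. The mean includes the *cstf64-2* libraries, so that a gene can reach a level through its rise. These shares therefore do not compare genes of equal wild-type level.

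The length of the shared stretch did not order the genes. With under 50 bp shared 191 of 1611 genes were up (11.9%), with 50 to under 100 bp 80 of 1020 (7.84%), with 100 to under 200 bp 59 of 854 (6.91%), with 200 to under 400 bp 50 of 562 (8.9%) and with 400 bp or more 43 of 674 (6.38%). Among the genes tested these were 63.7%, 55.2%, 44%, 67.6% and 48.3%. The part left to count shrinks along the same order, from a median of 1604 to 1294 bases, and its part in these shares was not tested. The genes that rose shared a median of 57 bp with their partner and the others 86 bp, and the parts of them that were counted had a median length of 1821 bases against 1413.

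**Figure D2:**
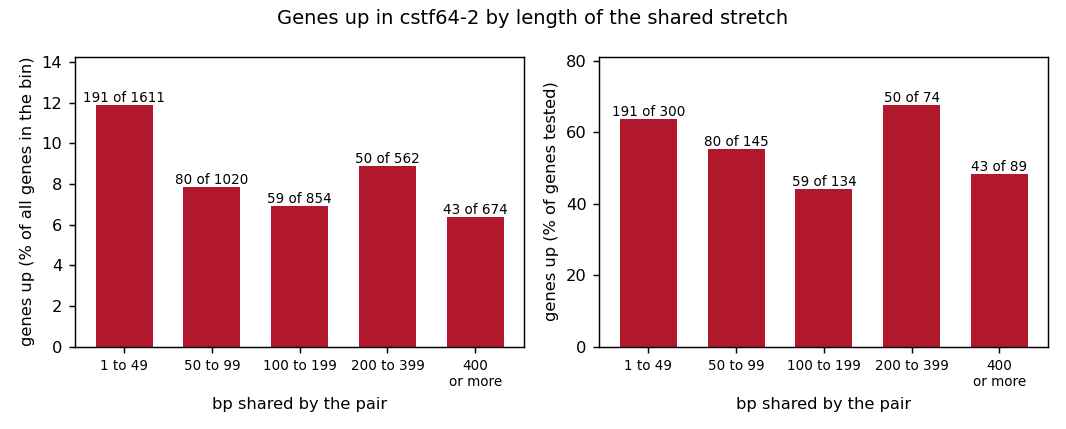
Genes up in *cstf64-2* as a percentage of all overlapping genes and of the overlapping genes tested, for 5 classes of the number of bp shared. The class of under 50 bp is highest among all genes (11.9%) and that of 200 to under 400 bp among the genes tested (67.6%), with no steady order between them.

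Motifs of the poly(A) region were no more frequent in the genes that rose. The letters AATAAA, the canonical poly(A) signal, were found on the gene's own strand in the last 50 bases before the annotated end of 26 of the 423 genes (6.15%), of 9.66% of the other overlapping genes and of 9.77% of all protein-coding genes. The GU-rich word TGTGT was found on the same strand in the 50 bases behind the end of 22 of the 423 (5.2%), of 5.98% of the other overlapping genes and of 6.48% of all. A match is a description of these letters and not of a site in use.

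Both genes of a pair were tested in 157 pairs, 1 gene in 428 and neither in 1776. Both rose in 92 of the 157 pairs, 1 rose in 43 and neither in 22. Log2 fold changes were above 0 for both genes in 143 pairs, below 0 for both in 0 and split in 14. Across the 157 pairs the fold changes of the partners had a Pearson correlation of 0.32 and a Spearman correlation of 0.27, given as a description of pairs that share libraries, and the median gap between partners was 0.84 on the log2 scale. Over all pairs 331 (14.0%) had at least 1 gene up. When the counts of both genes were added into 1 value, 819 pairs could be tested, and 436 were up and 5 down, beside 13.7% and 3.24% of all rows of that table. Among the 436 were 126 pairs without a gene that was up by itself.

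**Figure D3:**
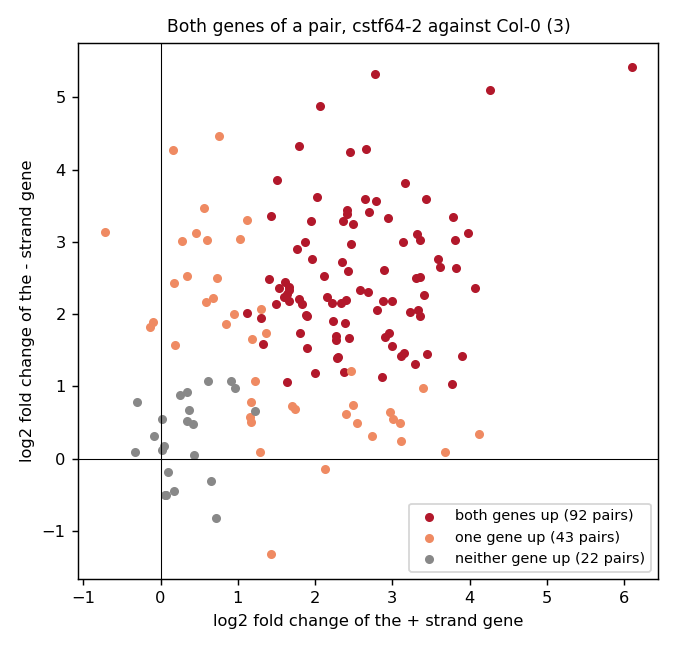
Log2 fold change of the - strand gene against that of the + strand gene of the same pair, *cstf64-2* against Col-0 (3), for the 157 pairs with both genes tested, coloured by how many genes of the pair were up. The 92 pairs with both up fill the upper right, and no pair has both values below 0.

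The strongest pair was *AT2G01100* with *APG2* (AT2G01110), which share 31 bp of untranslated sequence on chromosome 2, from 83260 to 83290. *AT2G01100*, a FAM133-like gene, had 102, 95 and 73 reads in *cstf64-2* and 1, 1 and 1 in Col-0 (3). *APG2*, the TatC subunit of the thylakoid twin-arginine translocase, had 149, 172 and 147 reads against 1, 1 and 7. Both genes were nearly silent in small RNAs in Col-0 (3) and high in each *cstf64-2* library. The 14 day-old wild types had more reads on them. *AT2G01100* had 13, 11 and 12 in Col-0 (1) and 13, 16 and 16 in Col-0 (2), and *APG2* had 30, 25 and 34 and 13, 21 and 17. Those libraries are larger and differ in age, medium and, as inferred from the counts, counting. *AT2G01100* was 76.7-fold higher (95% interval 26.0 to 374, adjusted p = 6.54e-07), where the interval is given for genes with 1 to 3 reads in all in a group and covers counting error only, and *APG2* rose by 5.42 on the log2 scale (SE 0.35, adjusted p = 1.24e-06).

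In the next pairs the rise was of the same kind at lower counts. *PWP2* (AT1G15440), named for a yeast protein of rRNA processing, had 24, 16 and 14 reads against 0, 1 and 0 and was 46.0-fold higher (95% interval 7.92 to 1850, adjusted p = 0.000265). Its partner *AT1G15430*, with which it shares 61 bp, had 23, 27 and 25 against 0, 1 and 2 and was 21.3-fold higher (95% interval 7.02 to 106, adjusted p = 0.000178). *TGH* (AT5G23080), a G-patch protein of microRNA processing, had 23, 26 and 26 reads against 3, 1 and 2. Its partner *TK1b* (AT5G23070), a thymidine kinase, had 35, 27 and 24 against 2, 2 and 1. These partners share 39 bp, and small RNAs rose by 3.34 on *TGH* (SE 0.45, adjusted p = 0.000183) and by 3.78 on *TK1b* (SE 0.44, adjusted p = 7.57e-05), both on the log2 scale.

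*AT4G25660*, a putative thiol peptidase, and *AT4G25670* share a long stretch of chromosome 4, from 13085198 to 13085596, into which coding sequence of *AT4G25670* reaches. They had 50, 61 and 58 reads against 5, 6 and 2, and 47, 37 and 48 against 4, 0 and 5. The log2 fold changes were 3.44 (SE 0.35, adjusted p = 2.78e-05) and 3.59 (SE 0.50, adjusted p = 0.000234). At the other end of the range of lengths, *AT1G53190*, a RING finger gene, and *AT1G53200*, a subunit of the RNA polymerase I initiation machinery, share 3 bp. Their reads were 22, 34 and 18 against 1, 1 and 4 (log2 fold change 3.32, SE 0.54, adjusted p = 0.000724) and 22, 19 and 23 against 2, 2 and 2 (log2 fold change 3.11, SE 0.43, adjusted p = 0.000224).

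Of the pairs whose sequence is printed above, *AT4G05400* had 20, 19 and 32 reads against 1, 2 and 1 and *YAO* 32, 24 and 33 against 1, 5 and 3. *AT4G05400* rose by 3.81 (SE 0.53, adjusted p = 0.000253) and *YAO* by 3.03 on the log2 scale (SE 0.45, adjusted p = 0.000402). *AT3G06610* had 47, 41 and 36 reads against 2, 4 and 4 and *AT3G06620* 73, 81 and 68 against 9, 5 and 9. *AT3G27520* had 38, 44 and 34 reads against 1, 6 and 2 and *GC6* 50, 48 and 39 against 5, 7 and 12. In these 3 pairs no wild-type library reached a mutant one, although the partners touch over 18 to 24 bp.

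The remaining 2 of the 8 pairs, ranked by the weaker of their genes, are *AT1G11390* with *AT1G11380* and *AT1G64190* with *AT1G64185*. *AT1G11390*, a protein kinase, and *AT1G11380* share 31 bp and rose by 3.81 (SE 0.48, adjusted p = 0.00013) and 3.17 on the log2 scale (SE 0.49, adjusted p = 0.000507). *AT1G64190*, a phosphogluconate dehydrogenase, rose by 3.12 (SE 0.46, adjusted p = 0.000378), and *AT1G64185*, a glyoxalase family gene with which it shares 56 bp, was 18.3-fold higher (95% interval 4.77 to 156, adjusted p = 0.0013).

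**Figure D4:**
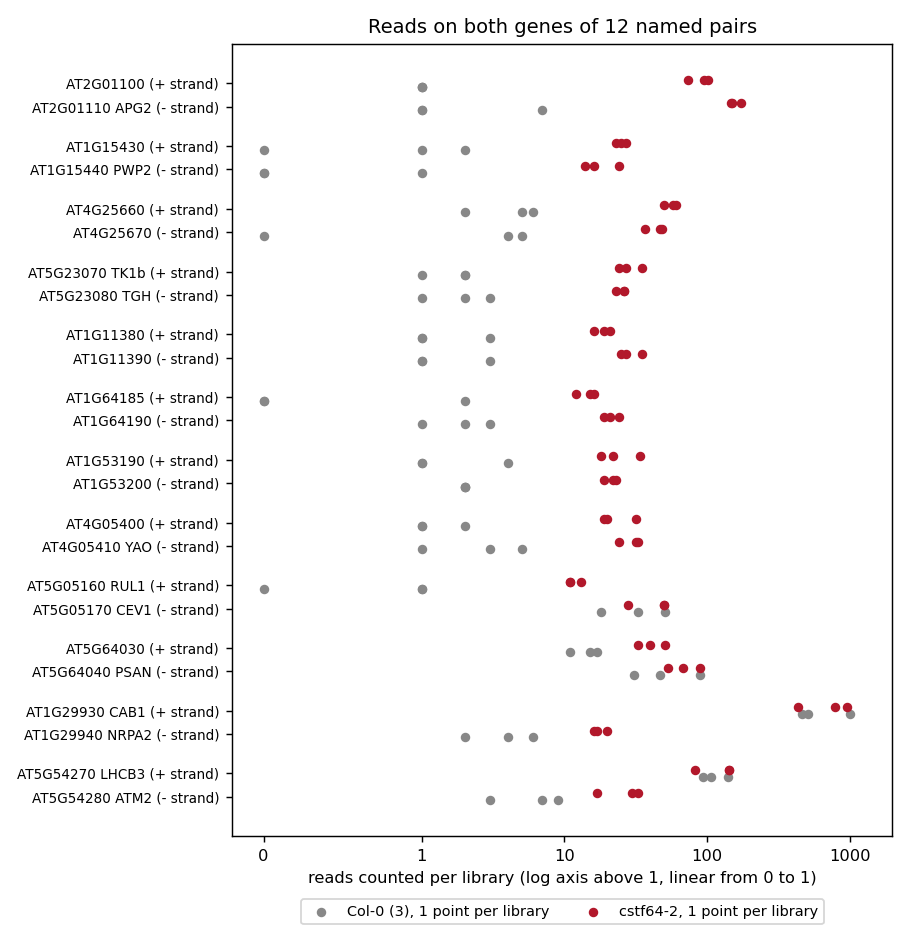
Reads per library on both genes of 12 named pairs, 1 point per library, with *cstf64-2* and Col-0 (3) side by side on an axis that is logarithmic above 1 and linear from 0 to 1. In the 8 pairs with both genes up the points of the groups are apart for both partners, such as 73 to 102 against 1 for *AT2G01100*, while in the last 4 pairs they are apart for 1 partner only.

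Some single genes are given beside these and were chosen after their values were seen. *AT5G65850*, an F-box gene, had 22, 20 and 22 reads against 0, 0 and 0, and its partner *AT5G65860*, with 10, 7 and 16 against 0, 1 and 0, had too few to be tested. *APC8* (AT3G48150), a subunit of the anaphase-promoting complex, had 161, 173 and 152 reads against 3, 4 and 3 (log2 fold change 5.33), and its partner *AT3G48140* rose by 2.78. *AHG2*, which encodes the poly(A) ribonuclease mutated in *ahg2-1*, had 13, 12 and 16 reads in *cstf64-2* against 0, 1 and 0 in Col-0 (3) (adjusted p = 0.00048), with a partner, *AT1G55880*, at 6, 5 and 7 against 1, 1 and 1.

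Only 1 partner rose in 43 of the 157 pairs with both genes tested, and in 196 further pairs 1 gene rose and its partner was untested. Among the 43, the 4 in which the other partner was closest to 0 included genes of photosynthesis and the cell wall. *NRPA2* (AT1G29940), the second largest subunit of RNA polymerase I, had 17, 16 and 20 reads against 6, 4 and 2 (log2 fold change 1.89, SE 0.43, adjusted p = 0.00521, and 0.0514 with DESeq2). Its partner *CAB1* (AT1G29930), a chlorophyll a/b binding protein with close copies that can share reads, had 789, 433 and 954 against 510, 464 and 1004 (log2 fold change -0.10, adjusted p = 0.844). *ATM2* (AT5G54280), a myosin, rose from 3, 7 and 9 reads to 17, 30 and 33 (1.83, SE 0.45, adjusted p = 0.00819). The antenna gene *LHCB3* (AT5G54270) beside it had 142, 82 and 142 against 107, 93 and 141 (-0.13, adjusted p = 0.686). *RUL1* (AT5G05160), a receptor-like kinase of the cambium, had 13, 11 and 11 reads against 1, 1 and 0 and was 14.9-fold higher (95% interval 3.83 to 128, adjusted p = 0.000894). Its partner *CEV1* (AT5G05170), a cellulose synthase, had 50, 28 and 50 against 18, 33 and 51 (0.09, adjusted p = 0.877). The methyltransferase gene *AT5G64030* rose by 1.29 (SE 0.29, adjusted p = 0.00451) beside *PSAN* (AT5G64040), a photosystem I subunit, at 0.10 (adjusted p = 0.858). In each of the 4 pairs the partner that was not called had more reads in the wild type than the one that rose, which was not tested over the 43 pairs.

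Of the 22 pairs with neither gene called, the 3 with the most reads held genes with many small RNAs in both groups. *AT2G07785* and *AT2G07599* had log2 fold changes of 0.02 and 0.12, and they lie in the part of chromosome 2 that is known to carry a copy of the mitochondrial genome, so that their reads may come from either place. *NOGC1* (AT1G62580) and *AT1G62590*, a pentatricopeptide repeat gene, changed by 0.05 and -0.49 (adjusted p = 0.829 and 0.00651). *AT4G33290*, an F-box gene, had 273, 247 and 237 reads against 190, 110 and 93 and *ADR1-L1* (AT4G33300), a helper immune receptor, 53, 60 and 79 against 86, 92 and 110. They moved apart by 0.72 (adjusted p = 0.0126) and -0.81 (adjusted p = 0.00647), below the fold that was called. Without Col-0 (3) replicate 1 *AT4G33290* was at 1.05 and without *cstf64-2* replicate 3 *ADR1-L1* was at -1.03, both past it.

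Only 5 of the 4719 genes fell. *AT3G59250*, an F-box gene, went from 67, 37 and 42 reads to 6, 6 and 5 (log2 fold change -3.3, SE 0.35, adjusted p = 3.65e-05), with 1 read in all on its partner *AT3G59245*. *AT1G73650*, a putative steroid dehydrogenase, had 7164, 6488 and 5282 reads against 14182, 15101 and 11368 (-1.34, SE 0.14, adjusted p = 4.16e-05), while its partner *RABA6a* had at most 1 in any library of the third set. *BCA5* (AT4G33580), a carbonic anhydrase, had 9, 4 and 11 against 23, 19 and 11, so that its groups touch, and its call (-1.35, adjusted p = 0.031) was lost with DESeq2 (adjusted p = 0.0901), with scaling to the sum of all counter lines (0.0585) and without replicate 1 or 2 of either group (0.0856 to 0.124). In 1 pair the partners were called in opposite directions. *FADA* (AT4G27030), a chloroplast fatty acid desaturase, rose by 1.43 (40, 47 and 37 reads against 9, 13 and 17) and *VPS22* (AT4G27040), an ESCRT-II subunit, fell by 1.32 on the log2 scale (8, 8 and 10 against 17, 23 and 16).

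*AT1G73650* alone made up 29.6 to 41.1% of all reads on overlapping genes in Col-0 (3) and 10.3 to 13.4% in *cstf64-2*, and it hides the rise of the others in any sum. With it, the overlapping genes took 10.6% ± 0.389 (SD, n = 3) of protein-coding reads in *cstf64-2* and 9.08% ± 0.384 in Col-0 (3). Without it (left out after the data were seen) they took 9.38% ± 0.470 and 5.97% ± 0.681. The libraries of the groups did not overlap either way, and the two-sided exact permutation test gave p = 0.1, the smallest value that 3 against 3 libraries allow.

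By annotated function the genes that rose spread widely. Of 107 overlapping genes of RNA binding, splicing and 3′ end processing 25 were tested, and 20 rose, a share of 18.7% of all listed against 8.96% of all overlapping genes, with a median log2 fold change of 2.08 beside 1.5. They include *AT3G13230* (37, 36 and 36 reads against 2, 0 and 4), *AT3G32940* (78, 75 and 86 against 9, 4 and 4) and *AT4G12640*, whose stretch is printed above (43, 37 and 42 against 1, 4 and 5). Of 204 transcription factor genes 31 were tested and 21 rose, with a median of 2.08. Of 270 genes on a kinase list 42 were tested and 24 rose, led by *WNK6* (43, 52 and 53 reads against 2, 2 and 2). That list matches words in product names and also holds other kinases, such as the thymidine kinase gene *TK1b*. Of 170 genes of the ubiquitin pathway 30 were tested, and 17 rose and 1 fell, and of 132 of transport and vesicle traffic 15 were tested and 11 rose, among them the metal transporter gene *NRAMP2* (10, 15 and 12 against 1, 2 and 2). Both chromatin genes tested of 30 rose, the histone H2A gene *HTA13* (17, 16 and 21 against 3, 2 and 1) and the remodeller *CHR17* (27, 21 and 18 against 2, 3 and 4). Medians were lower in genes of ribosomal proteins (0.81, 8 of 22 tested up) and of the chloroplast (0.35, 8 of 30 tested up), where the plastid importer *TIC21* had 26, 33 and 21 reads against 2, 7 and 11. Of 190 genes on a keyword list meant for stress proteins 18 of 36 tested rose and 1 fell. This list also holds enzymes of metabolism, among them the phosphogluconate dehydrogenase gene *AT1G64190* and *AT1G73650*, the 1 that fell. It therefore does not stand for a stress response. As shares of all listed genes the order differed from that of the medians. Up calls were 12.9% of ribosomal protein genes, 12.1% of chloroplast genes, 10.3% of transcription factor genes and 10% of ubiquitin pathway genes. They were 9.47% of the stress list, 8.89% of the kinase list, 8.33% of transport genes and 6.67% of chromatin genes, beside 8.96% of all overlapping genes. A gene can stand in more than 1 of these keyword lists, and differences between lists were not tested.

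The *rsr1-2* and *fy-2* mutants carry other defects of the same processing step, and the fold changes in *cstf64-2* were set against theirs gene by gene in 1 model per pair of mutants. The fold change was higher in *cstf64-2* than in *rsr1-2* for 429 of 1720 overlapping genes tested and lower for 3, beside 9.75% and 5.01% of all genes tested. Against *fy-2* it was higher for 394 of 1734 and lower for 4, beside 8.56% and 4.44%. The median difference over the overlapping genes was 1.36 and 1.32 on the log2 scale, beside 0.12 and 0.09 for all genes. All genes include those that are not protein-coding, and shares over protein-coding genes alone were not taken for these differences. That matters here, since up calls in *cstf64-2* were 13.6% of all genes tested but 27.5% of protein-coding ones. Of the 423 genes up in *cstf64-2*, 290 (68.6%) and 268 (63.4%) were called higher there. The 423, and the genes named next, were chosen by their rise in the same *cstf64-2* and Col-0 (3) libraries. Their differences are therefore a description and no separate support. *AT2G01100* differed by 7.05 from *rsr1-2* (adjusted p = 9.37e-09) and by 6.88 from *fy-2* (adjusted p = 8.41e-09), and *APG2* by 5.61 and 5.85. *AT4G05400* and *YAO* missed the threshold in both (adjusted p between 0.0995 and 0.132), although their differences were 2.81 to 3.3. Plant age, medium and, as inferred from the counts, the read counting differ between these sets together with the mutation, and these cannot be told apart.

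In the other 9 mutants the share of overlapping genes that were up lay near or below that of protein-coding genes, so that it is no result about these genes. Calls among overlapping genes tested are given here with the share of protein-coding genes tested that were called the same way. In *lsm1a lsm1b* 9 of 815 were up (2.35%) and 67 down (7.47%). In *ncb-4* 33 of 808 were up (3.57%) and 122 down (11.9%), in *upf1-5* 7 of 819 (1.58%) and 61 (6.19%), and in *upf3-1* 14 of 835 (2.79%) and 121 (12.2%). In *ahg2-1* 18 of 871 were up (2.93%) and 67 down (8.06%), in *pab2 pab4* 8 of 911 (1.45%) and 82 (6.8%), in *rsr1-2* 3 of 888 (0.893%) and 18 (2.05%), in *fy-2* 2 of 889 (0.522%) and 10 (0.896%), and in *ccr4a* 1 of 959 (0.516%) and 1 (0.142%). Each share is read against wild-type libraries of equal age that also differ, since Col-0 (2) against Col-0 (1) gave 14 up (1.79%) and 9 down (1.44%) of 798.

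These directions rest on the scaling. With libraries scaled to the sum of all counter lines, which moved the median log2 fold change of all genes by 0.25 in *ccr4a* to 0.72 in *lsm1a lsm1b*, up and down calls became 73 and 3 in *lsm1a lsm1b*, 109 and 43 in *ncb-4*, 62 and 27 in *upf1-5* and 83 and 44 in *upf3-1*. In the second set they became 41 and 32 in *ahg2-1*, 28 and 10 in *pab2 pab4*, 8 and 1 in *rsr1-2*, 5 and 3 in *fy-2* and 3 and 0 in *ccr4a*. In *cstf64-2* the median moved by 0.21 and the split was 462 up and 3 down.

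**Figure D5:**
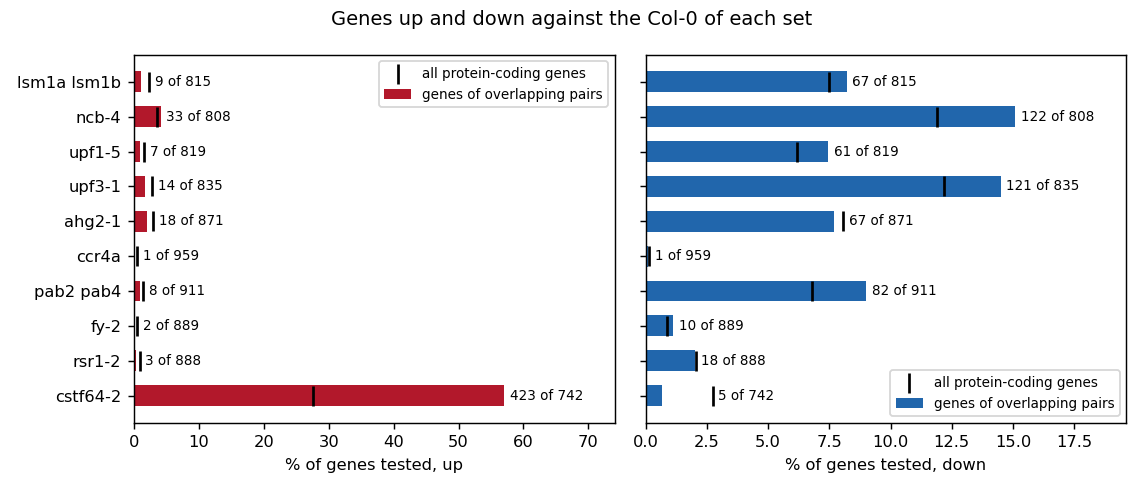
Overlapping genes called up (left panel) and down (right panel) as a percentage of the overlapping genes tested in each mutant (bars, with counts), and the same percentage over all protein-coding genes tested (vertical ticks). *cstf64-2* stands out with 423 of 742 up, and the bars of the other mutants lie near their ticks.

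In most of the other mutants the genes that rose in *cstf64-2* were called about as often as protein-coding genes there, which is no result about them. In *rsr1-2* 3 of 157 tested were up, beside 0.893% of protein-coding genes tested, and these are all the overlapping genes that rose in *rsr1-2*. The paper also reports genes with antisense partners that gained siRNAs in both of these mutants. Of the 423, between 136 (*ncb-4*) and 164 (*ccr4a*) could be tested. In *ncb-4* 6 of 136 were up and 22 down, beside 3.57% and 11.9% of protein-coding genes tested, and in *upf3-1* 22 of 151 were down, beside 12.2%. *AT2G01100* and *APG2* fell in some of these mutants. *AT2G01100* had 2, 5 and 2 reads in *ncb-4* against 13, 11 and 12 in Col-0 (1) (log2 fold change -2.46, adjusted p = 0.00184). It had 2, 5 and 4 reads in *ahg2-1* against 13, 16 and 16 in Col-0 (2) (-2.21, adjusted p = 0.00278). *APG2* had 11, 8 and 23 reads in *lsm1a lsm1b* against 30, 25 and 34 (-1.76, adjusted p = 0.00265). *LHCB3* and *PSAN*, not called in *cstf64-2*, fell in both nonsense-mediated decay mutants. *LHCB3* had 80, 62 and 61 reads in *upf3-1* and 105, 69 and 94 in *upf1-5* against 240, 269 and 232 in Col-0 (1), log2 fold changes of -2.45 and -1.87 (adjusted p = 2.81e-11 and 2.25e-07), and *PSAN* fell by 1.86 and 1.54 on the log2 scale. *CAB1* fell in *upf3-1* (-1.52, adjusted p = 2.07e-08) and was at -0.93 in *upf1-5*, short of the fold that was called.

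Over all pairs with both genes tested, both were down in 4 of 73 in *ncb-4*, 2 of 77 in *upf3-1* and 2 of 90 in *pab2 pab4*. Both were also down in 1 of 70 in *lsm1a lsm1b*, 1 of 74 in *upf1-5* and 1 of 76 in *ahg2-1*. In *upf3-1* the partners of 1 more pair were called in opposite directions, and both genes were up only in 1 of 92 in *rsr1-2*. Among the genes named here for their large changes, both partners were called in that pair alone. Most other partners had too few reads to be tested. *UGT71C3* (AT1G07260) and *UGT71C4* (AT1G07250), neighbouring glucosyltransferase genes of 1 family that share 15 bp, both rose in *rsr1-2*. *UGT71C3* had 25, 37 and 30 reads against 9, 4 and 3 (log2 fold change 2.08, SE 0.42, adjusted p = 0.00219), and *UGT71C4* 95, 143 and 96 against 19, 22 and 20 (2.02, SE 0.22, adjusted p = 3.32e-07). As related genes they may share reads. Also in *rsr1-2*, *AT3G08943* had 172, 191 and 157 reads against 8, 22 and 14 (3.14, SE 0.24, adjusted p = 5.28e-11), while its partner *LHCB4.2* had 184, 266 and 216 against 230, 215 and 253 (-0.49, adjusted p = 0.0429). *UGT71C3*, *UGT71C4* and *AT3G08943* are the 3 overlapping genes up in *rsr1-2*, and all 3 were also up in *cstf64-2*.

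In *ncb-4*, *BCAT-2* (AT1G10070), a branched-chain amino acid transaminase, had 1, 0 and 0 reads against 64, 54 and 55 and was 243-fold lower (95% interval 43.0 to 9640, adjusted p = 1.15e-09). *BCAT-2* was also down in *lsm1a lsm1b*, *upf1-5*, *upf3-1*, *ahg2-1* and *pab2 pab4*. *TT4* (AT5G13930), the chalcone synthase of flavonoid synthesis, rose in *ncb-4* to 46, 52 and 38 reads from 4, 1 and 2 (3.71, SE 0.43, adjusted p = 3.12e-06), with no read on its partner *AT5G13940*. *IMD1* (AT5G14200), of leucine synthesis, had 18, 24 and 14 reads against 2, 1 and 1, a rise of 3.20 on the log2 scale (SE 0.58, adjusted p = 0.000455, and 0.101 with Col-0 (2) as reference). In *lsm1a lsm1b* the disease resistance gene *AT5G63020* rose from 14, 14 and 28 reads to 195, 183 and 186 (2.66, SE 0.24, adjusted p = 5.04e-06), and its partner *AT5G63010*, with 3, 4 and 4 against 0, 1 and 0, had too few reads to be tested. In *upf3-1* the zinc knuckle gene *AT3G43590*, which shares 743 bp with the aldehyde oxidase gene *AAO2*, rose from 4, 4 and 2 reads to 23, 26 and 13 (2.02, SE 0.51, adjusted p = 0.0035, and 0.276 with Col-0 (2) as reference). *AAO2* had 16, 10 and 14 against 7, 7 and 10 (0.15, adjusted p = 0.84).

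A change against 1 wild type was not always one against the other. *CYP81D11* (AT3G28740), a cytochrome P450, had 30, 44 and 26 reads in Col-0 (1) but 2, 4 and 2 in Col-0 (2), both 14 day-old seedlings. It fell in *lsm1a lsm1b* (10, 3 and 8 reads), *upf1-5* (0, 2 and 7) and *upf3-1* (1, 5 and 3), with log2 fold changes of -2.91, -3.81 and -3.99. It rose in *ahg2-1* (50, 36 and 44) and *pab2 pab4* (21, 31 and 15), by 3.74 and 2.53, and with Col-0 (1) as reference these became 0.05 (adjusted p = 0.914) and -1.14 (adjusted p = 0.0138). *XTH15* (AT4G14130), a cell wall xyloglucan endotransglucosylase/hydrolase, had 123, 152 and 62 reads in Col-0 (2). It fell to 5, 0 and 3 in *ahg2-1* (-5.60, SE 0.50, adjusted p = 2.65e-07), 6, 12 and 16 in *pab2 pab4* (-3.82) and 29, 39 and 48 in *fy-2* (-1.86). With Col-0 (1) as reference the last of these was 0.94 (adjusted p = 0.135) and that in *pab2 pab4* -1.0 (adjusted p = 0.191).

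Fewer calls were named in the remaining comparisons, and most of them were near the threshold or lost with the other wild type or without 1 library. In *upf1-5* the nitrate transporter gene *NRT1.8* had 13, 22 and 12 reads against 4, 1 and 4 (1.94, SE 0.56, adjusted p = 0.0243), a call lost without Col-0 (1) replicate 2 (0.129) and without *upf1-5* replicate 1 (0.0552) or 2 (0.167). *AT3G43590* rose by 1.71 (adjusted p = 0.0354) and was lost with Col-0 (2) as reference (0.699) and without any 1 of the 6 libraries (0.0795 to 0.13). In *fy-2* *LHCB2.3* (AT3G27690), which has close copies, had 66, 84 and 100 reads against 33, 32 and 37 (1.01, SE 0.22, adjusted p = 0.00953), and it was at 1.00, 0.95 and 0.78 without Col-0 (2) replicate 2, Col-0 (2) replicate 3 and *fy-2* replicate 3, no longer past the fold. *LHCB2.3* was also up in *ncb-4*, *ahg2-1*, *pab2 pab4* and *cstf64-2*, and down in *upf1-5* and *upf3-1*. In *ccr4a* *SRG3* (AT3G02040) rose by 1.44 (adjusted p = 0.0147). It was at -1.34 against Col-0 (1) (adjusted p = 0.0002) and missed the threshold without Col-0 (2) replicate 3 (0.103) and without *ccr4a* replicate 1 (0.0586) or 3 (0.113). *AT3G45180* fell (log2 fold change -1.15, adjusted p = 1.91e-05) and was at -0.20 against Col-0 (1) (adjusted p = 0.477). In *rsr1-2* the oxysterol-binding protein gene *ORP3B* had 7, 10 and 3 reads against 17, 16 and 14 (-1.64, SE 0.43, adjusted p = 0.017), lost without Col-0 (2) replicate 1 (0.0781) or 2 (0.0553) and without *rsr1-2* replicate 1 (0.0563) or 3 (0.0836).

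The pairs from which natural antisense siRNAs are best known gave few reads in these plants. *SRO5* (AT5G62520), named for its likeness to RCD1, and *P5CDH* (AT5G62530), which degrades proline and is listed as *ALDH12A1*, share 905 bp. *SRO5* had at most 9 reads in any library and *P5CDH* at most 19, and neither could be tested in any mutant. *AT4G35850* and *GB2* (AT4G35860), the Rab GTPase pair known from infected leaves, share 128 bp. *GB2* could be tested in 3 mutants, with log2 fold changes of -0.11 in *lsm1a lsm1b*, -1.03 in *ahg2-1* (adjusted p = 0.172) and -0.02 in *ccr4a*. In *cstf64-2* *GB2* had 2, 5 and 8 reads against 1, 0 and 2 and was not tested. Without *ahg2-1* replicate 1 the fold change of *GB2* in that mutant was -1.96 (adjusted p = 0.041).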

How the data were processed

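The deposited values are raw counts of reads per gene, which the authors made by trimming adapters with cutadapt 1.9 and quality with sickle, keeping reads from 15 bases on, mapping to TAIR10 with Bowtie 1.0.0 without mismatch at up to 10 places, and counting on Araport11 exons with HTSeq 0.6.0. They describe counting both with and without regard to strand, and which of these made the deposited files is not given in the sources used here. The paper describes 1 way of counting for all sets, but the third set appears to have been counted differently. Among genes with enough reads to compare, 186 in the first set and 187 in the second had the same counts as another gene in every library. In the third set 0 did. How this arose is not stated, so the counts of the third set were compared with the others only through fold changes. Pairs were found in the TAIR10.1 annotation of RefSeq. Each mutant was tested against the Col-0 of its set on the whole table (counter lines left out) with edgeR 4.0.16 in R 4.3.3 (filterByExpr, TMM, quasi-likelihood test, Benjamini-Hochberg over all genes tested). The script was tested on simulated data. SE is the log2 fold change divided by the square root of F. Alternatives were DESeq2 1.42.0, other scalings and filters, a replicate block, all groups of a set in 1 fit, the other set's Col-0 and leaving out each library. For *cstf64-2* 8 pairs with both genes up were named by their lower fold change, 4 with 1 gene up, 3 with neither and 3 genes down, and for each other mutant up to 2 genes up and 1 down with mutant and Col-0 libraries apart. Members and lists were chosen with earlier results of these data known. Reads without molecular identifiers are not independent molecules, and intervals cover counting error only.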

Additional observations from a re-analysis of the deposited data

Results flagged for a closer look

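The response of the overlapping genes differed between *cstf64-2* and each of *rsr1-2* and *fy-2*, by a test of the difference itself, while these were not tested against each other. The fold change was higher in *cstf64-2* than in *rsr1-2* for 429 of 1720 genes tested and lower for 3, beside 9.75% and 5.01% of all genes tested, whose median difference was 0.12 on the log2 scale. It was higher in *cstf64-2* than in *fy-2* for 394 of 1734 and lower for 4, beside 8.56% and 4.44%, with that median at 0.09. These shares of all genes include genes that are not protein-coding, and a share over protein-coding genes alone was not taken. The mutants compared differ in age, medium and, as inferred from the counts, counting as well, and the part of these in the difference was not tested.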

How the results depend on the processing

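Counts of overlapping genes up in *cstf64-2* stayed within 1.5 times of 423 with every alternative except no filter on low counts, where 656 were up and 12 down, 154 pairs had both genes up and 9 summed pairs were down. With scaling to the sum of all counter lines 3 of these genes were down there. That scaling gave 73 up and 3 down in *lsm1a lsm1b*, 109 and 43 in *ncb-4*, 62 and 27 in *upf1-5*, 83 and 44 in *upf3-1*, 41 and 32 in *ahg2-1*, 3 and 0 in *ccr4a*, 28 and 10 in *pab2 pab4*, 5 and 3 in *fy-2* and 8 and 1 in *rsr1-2*. DESeq2 gave 34 down in *lsm1a lsm1b*, 17 up and 74 down in *ncb-4*, 2 and 38 in *upf1-5*, 8 up in *upf3-1*, 29 down in *ahg2-1*, 0 up in *ccr4a*, 2 up and 12 down in *pab2 pab4*, 1 and 1 in *fy-2* and 1 down in *rsr1-2*. With the other set's Col-0 there were 154 down in *lsm1a lsm1b*, 188 down in *ncb-4*, 12 up and 97 down in *upf1-5*, 34 up in *ahg2-1*, 21 up and 12 down in *ccr4a*, 21 up in *pab2 pab4*, 9 up and 23 down in *fy-2* and 10 up in *rsr1-2*. Single genes that turned with it were AT3G02040 in *ccr4a* (-1.34), AT3G28740 in *pab2 pab4* (-1.14), and in *fy-2* AT4G28040 (-0.32) and AT4G14130 (0.94). No filter gave 15 up in *lsm1a lsm1b* and 50 down in *pab2 pab4*. A mean of at least 10 counts gave 1 up in *fy-2* and lowered the genes with a higher fold change in *cstf64-2* to 259 against *rsr1-2* and 246 against *fy-2*, from a table with fewer genes. All groups of a set in 1 fit gave 5 up in *fy-2*. Where no value is given the cause of a shift was not tested.

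As a share of protein-coding reads, overlapping genes were at 0.904 times Col-0 in *lsm1a lsm1b*, 0.939 in *upf1-5*, 0.843 in *upf3-1*, 0.969 in *pab2 pab4*, 0.949 in *fy-2* and 0.963 in *rsr1-2*. As a share of all reads on genes these ratios turned to 1.2, 1.11, 1.07, 1.04, 1.07 and 1.01. Without AT1G73650 (left out after the data were seen) *ncb-4* and *ahg2-1* turned from 1.01 and 1.02 to 0.934 and 0.952.

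Replicate numbers are shared between groups, and the mean correlation of same-numbered libraries ran from -0.06 in *fy-2* to 0.14 in *cstf64-2*. In *cstf64-2* it was -0.02, 0.20 and 0.25 for replicates 1, 2 and 3, so that some shared deviation is possible there. With the replicate block 422 overlapping genes were up and 6 down in *cstf64-2*. Only in *ncb-4* did every library correlate best with its own number. The replicate block gave 2 up in *upf1-5* and 11 down in *rsr1-2* and otherwise moved no count by over 1.5 times.

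With each library left out in turn, up counts ranged from 5 (without Col-0 (1) replicate 2) to 10 in *lsm1a lsm1b*, from 1 (without Col-0 (1) replicate 2) to 9 in *upf1-5*, from 9 (without *upf3-1* replicate 1 or 3) to 16 in *upf3-1*, from 0 (without Col-0 (2) replicate 3 or *ccr4a* replicate 1 or 3) to 2 in *ccr4a*, from 4 (without Col-0 (2) replicate 1) to 10 in *pab2 pab4*, from 0 (without Col-0 (2) replicate 2 or *fy-2* replicate 3) to 1 in *fy-2* and from 385 to 543 in *cstf64-2*. Down counts ranged from 35 (without Col-0 (2) replicate 2) to 86 in *ahg2-1*, from 1 to 2 in *ccr4a*, from 31 (without Col-0 (2) replicate 2) to 109 in *pab2 pab4*, from 2 (without *fy-2* replicate 2) to 17 (without Col-0 (2) replicate 3) in *fy-2*, from 5 (without Col-0 (2) replicate 1) to 28 (without Col-0 (2) replicate 3) in *rsr1-2* and from 4 to 9 (without *cstf64-2* replicate 3) in *cstf64-2*, where summed pairs down ranged from 5 to 8. Share ratios that turned ranged from 0.98 to 1.06 in *ncb-4*, 0.987 to 1.08 in *ahg2-1*, 0.989 to 1.08 in *ccr4a*, 0.937 to 1.02 in *pab2 pab4*, 0.918 to 1 in *fy-2* and 0.931 to 1.02 in *rsr1-2*. Genes with a higher fold change in *cstf64-2* ranged from 306 to 497 against *rsr1-2* and from 279 to 413 against *fy-2*, and those with a lower one from 0 to 6 and from 1 to 8. Low counts limit all of this, since 3977 of 4719 genes had too few reads to be tested in *cstf64-2*.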
